A study of Mus musculus with 5 samples.

Results

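Peroxiredoxins, the ERO1 oxidases and the thioredoxin system were measured in murine bone marrow plasma cells (PCs) before and after culture. Of the 10 genes considered, Prdx1 to Prdx6, Ero1a, Ero1b, Txn1 and Txnip, 7 carried at least 1 array probe set that the platform annotation gives to that gene alone. These were Prdx2, Prdx3, Prdx4, Ero1a, Ero1b, Txn1 and Txnip, with 17 probe sets among the 34945 single-gene probe sets of the arrays. All 5 probe sets of Prdx1 are also given to Gm21399, a pseudogene in RefSeq, and were not used here. No probe set is listed for Prdx5 or Prdx6 in the annotation used, and both were not analysed here.

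PCs secrete large amounts of antibody, and each antibody molecule is held together by disulfide bonds that are formed in the endoplasmic reticulum (ER). The oxidases ERO1α and ERO1β, encoded by Ero1a and Ero1b, pass electrons from protein disulfide isomerases to oxygen and release hydrogen peroxide. Peroxiredoxins reduce peroxides through a reactive cysteine, with PRDX4 in the ER, PRDX3 in mitochondria and PRDX1 and PRDX2 mainly in the cytosol. Thioredoxin, encoded by Txn1, regenerates oxidized peroxiredoxins of the cytosol, and the product of Txnip binds and inhibits thioredoxin.

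Cultured PCs (3 arrays) were set against ex vivo PCs (2 arrays), and the question was which genes differ between these states. All PCs came from C57BL/6J mice primed and challenged with NP-CGG, a hapten coupled to chicken gamma globulin (spelled NP-CCG in the labels), in incomplete Freund's adjuvant. More than 30 days past the final boost they were isolated by depletion of B220+ and CD49b+ cells and enrichment of CD138high cells. Cultured PCs were kept for 3 days on ST2, a stromal cell line from mouse bone marrow, with the cytokine APRIL at physiological oxygen, in serum-containing medium with β-mercaptoethanol, a thiol reductant, and were then sorted by flow cytometry. Ex vivo PCs were lysed directly after the magnetic isolation and were not sorted. Experiment 1 gave 1 cultured and 1 ex vivo array, and experiment 2 gave 2 cultured arrays and 1 ex vivo array. Neither the labels nor the methods say that the 2 cultured arrays of experiment 2 came from separate cultures, or how many mice were pooled, so p-values measure only the spread between these arrays. Values are log2 of the RMA intensity, and a probe set was called at an adjusted p under 0.05 in limma over 30477 tested probe sets. Precision is limited by the number of arrays.

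The arrays fell apart by experiment as well as by culture. For Actb, the log2 difference between its 3′ and 5′ control probe sets, a sign of RNA integrity and labelling, lay between -0.12 and -0.01 in experiment 2 and was 0.31 and 0.77 in experiment 1. All 9 PC markers, among them Sdc1 (CD138), Prdm1 and Xbp1, were above the intensity floor of 50 in every array, and none was called for culture. The summed intensity of 16 stromal markers ran from 5661 to 15920 in cultured PCs, against 826 and 1025 in ex vivo PCs, and 10 of 14 tested were higher with the experiment as a block (8 and 7 on leaving out each cultured array of experiment 2 in turn). Of those called, Col3a1, Col6a1, Cxcl12 and Cav1 lay under the floor in both ex vivo arrays. They entered the test only through the cultured arrays, so the count is a description. In bulk RNA, fewer cells of a type and less RNA per cell cannot be told apart.

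With culture alone in the limma model, none of the 17 probe sets was called, when 0.0164% of all tested ones were higher in culture and 0.0295% lower. At an unadjusted p under 0.05, 3 of the 17 were higher and 1 was lower, against 1213 and 794 of the 30477 tested. The experiment numbers pair the arrays, and once the experiment was a block, 4 of the 17 were called. The 3 that rose were all probe sets of Ero1a, when 1.24% of all tested probe sets rose, and the 1 that fell was a probe set of Prdx2, when 0.561% fell. Cultured and ex vivo arrays did not overlap for 6 of the 17, with 5 higher and 1 lower in culture, against 9.42% higher and 10.6% lower in this way among all tested. Of the 5 higher, 3 read the same gene, Ero1a, and the others read Prdx3 and Txnip. All 3 changes within an experiment exceeded 1 on the log2 scale for the 3 Ero1a probe sets (higher, against 0.715% of all tested) and for the same probe set of Prdx2 (lower, against 0.299%). By gene, on the brightest probe set of each, 1 of the 7 genes rose with the block and 0 fell. Over the 13578 genes tested, 1.13% rose and 0.611% fell. The median log2 difference without the block was 0.05 over the 7 genes and -0.06 over all genes tested.

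**Figure D1:**
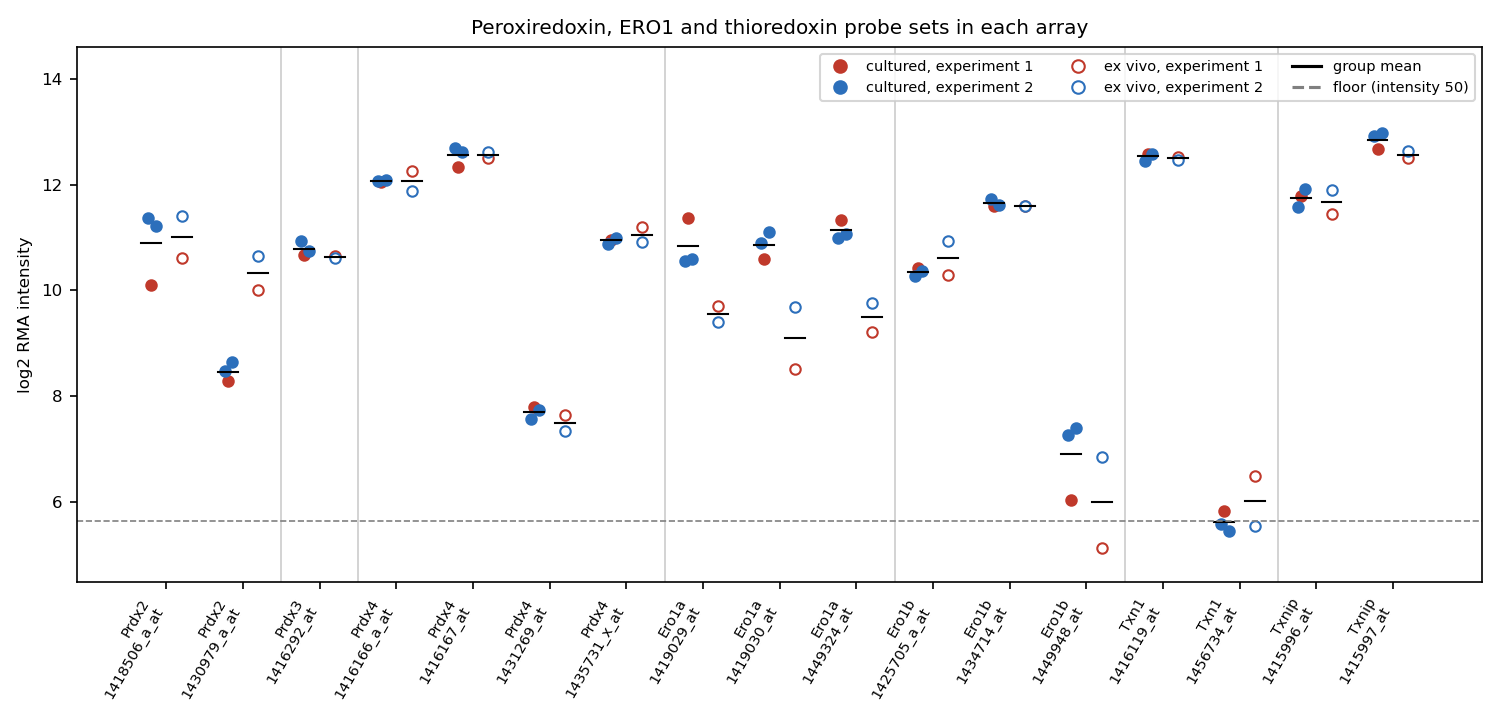
Log2 RMA intensity (y axis) of the 17 probe sets (x axis, grouped by gene), with the 3 cultured arrays as filled points to the left and the 2 ex vivo arrays as open points to the right of each position, coloured by experiment. Horizontal bars are group means and the dashed line is the intensity floor of 50. The cultured arrays lie above the ex vivo arrays for all 3 Ero1a probe sets and below them for 1 of the 2 Prdx2 probe sets.

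Ero1a, the ERO1 gene that hypoxia is known to induce, was about 3-fold higher after culture. On its brightest probe set, 1449324_at, the log2 level was 11.34, 11.00 and 11.07 in cultured PCs (experiment 1, then both arrays of experiment 2), against 9.21 and 9.77 in ex vivo PCs (experiments 1 and 2). Each cultured array lay above each ex vivo array. Means were 11.13 ± 0.18 (SD, n = 3) in cultured and 9.49 ± 0.40 (SD, n = 2) in ex vivo PCs, and Ero1a rose 3.10-fold in limma with the experiment as a block (1.63 log2 units, standard error (SE) 0.21, adjusted p = 0.0302). Without the block the difference was 1.64 (SE 0.22, adjusted p = 0.159).

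The other Ero1a probe sets ran the same way. Probe set 1419030_at read 10.60, 10.90 and 11.10 in cultured PCs against 8.51 and 9.68 in ex vivo PCs, and 1419029_at read 11.36, 10.55 and 10.59 in cultured PCs against 9.71 and 9.40 in ex vivo PCs. With the block, 1419030_at rose by 1.65 ± 0.20 (SE, adjusted p = 0.026) and 1419029_at by 1.38 ± 0.14 (SE, adjusted p = 0.0188), and without it their adjusted p was 0.39 and 0.452. On all 3 probe sets both changes within experiment 2, which ran from 1.15 to 1.42, were smaller than the change within experiment 1, from 1.65 to 2.13. The test of that difference did not pass (interaction in limma, adjusted p = 0.654 for each). It had 1 residual degree of freedom and called none of the 30477 probe sets. It therefore cannot decide whether the change of Ero1a differs between the experiments. Without the second cultured array of experiment 2, no Ero1a probe set passed with the block (adjusted p from 0.0683 to 0.0884), and with the 2 cultured arrays of experiment 2 averaged the adjusted p ran from 0.0505 to 0.0697.

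Ero1b, the ERO1 gene known for its high expression in pancreatic β cells, did not pass on any of its 3 probe sets. The brightest, 1434714_at, was nearly level in all arrays, at 11.60, 11.72 and 11.62 in cultured PCs and 11.60 and 11.59 in ex vivo PCs. Its log2 difference without the block was 0.05, with a 95% interval from -0.26 to 0.37. Between the brightest probe sets, the change of Ero1a exceeded that of Ero1b by 1.59 on the log2 scale, and did so in all 3 changes within an experiment (2.13 in experiment 1, 1.10 and 1.27 in experiment 2). The exact permutation test over the 5 arrays, which ignores the pairing by experiment, gave a two-sided p of 0.1, the smallest it can give. Since it cannot reach 0.05, it cannot decide whether the changes of the 2 genes differ.

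The Ero1b probe sets did not run alike. Probe set 1425705_a_at read 10.43, 10.27 and 10.36 in cultured PCs against 10.29 and 10.93 in ex vivo PCs, so that its ex vivo array of experiment 2 stood above the rest. The dimmest, 1449948_at, read 6.04, 7.26 and 7.41 in cultured PCs against 5.14 and 6.86 in ex vivo PCs, with the ex vivo array of experiment 1 under the floor. It was higher in culture within both experiments (0.90 in experiment 1, 0.40 and 0.55 in experiment 2) but did not pass with the block (0.66, SE 0.14, adjusted p = 0.0957).

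The promoters of the 2 ERO1 genes are shown because 1 of them was called and the other was not, and that of Prdx2 because it was called in the other direction. Each runs from 250 bases before to 50 bases after the annotated start of the gene (RefSeq, GRCm38.p6), 5′ to 3′ on the strand of the gene, and is not a region measured on the arrays. Capitals mark ACGTG or GCGTG on either strand, the core of the element that hypoxia-inducible factors are known to bind. A CACGTG would count once on each strand, and none of these 3 promoters holds it.
Ero1a, chr14:45318523-45318822, minus strand: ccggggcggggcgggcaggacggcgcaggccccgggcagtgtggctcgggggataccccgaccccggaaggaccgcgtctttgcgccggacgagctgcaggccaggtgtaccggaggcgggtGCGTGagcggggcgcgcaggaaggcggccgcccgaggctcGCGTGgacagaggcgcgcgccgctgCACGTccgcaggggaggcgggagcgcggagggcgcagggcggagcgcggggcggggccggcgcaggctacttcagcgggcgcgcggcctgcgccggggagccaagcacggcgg
Ero1b, chr13:12565633-12565932, plus strand: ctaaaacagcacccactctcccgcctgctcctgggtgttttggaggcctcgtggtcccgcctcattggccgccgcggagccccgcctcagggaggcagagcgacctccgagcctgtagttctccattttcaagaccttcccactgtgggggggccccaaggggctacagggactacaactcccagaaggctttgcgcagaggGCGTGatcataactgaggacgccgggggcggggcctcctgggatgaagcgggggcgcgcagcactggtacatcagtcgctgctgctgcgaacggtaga
Prdx2, chr8:84969372-84969671, plus strand: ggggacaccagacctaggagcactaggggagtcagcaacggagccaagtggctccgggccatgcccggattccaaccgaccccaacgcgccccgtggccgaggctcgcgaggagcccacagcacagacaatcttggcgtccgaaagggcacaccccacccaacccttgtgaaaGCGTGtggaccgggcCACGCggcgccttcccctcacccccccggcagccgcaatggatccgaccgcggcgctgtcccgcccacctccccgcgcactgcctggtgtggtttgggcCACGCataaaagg
Ero1a and Prdx2 each held 3 matches and Ero1b held 1. Of 32851 promoters of the same length, 43.8% held at least 1 match and 8.93% held at least 3. Of the other measured genes, none of which was called, Prdx3, Prdx4 and Txnip held 2 each and Txn1 held 1. The 2 of Prdx4 are 1 CACGTG counted on each strand. The matches describe the letters and not a bound site, and their part in the changes was not tested.

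Prdx2, a cytosolic peroxiredoxin that is very abundant in red blood cells, was lower in culture on 1 of its 2 probe sets. On 1430979_a_at the log2 level was 8.29, 8.47 and 8.64 in cultured PCs (experiment 1, then both arrays of experiment 2), against 10.01 and 10.66 in ex vivo PCs (experiments 1 and 2). Each cultured array lay below each ex vivo array, and all were above the floor. Means were 8.47 ± 0.18 (SD, n = 3) in cultured and 10.33 ± 0.46 (SD, n = 2) in ex vivo PCs. In limma with the block it fell by 1.94 log2 units (SE 0.14, adjusted p = 0.0063), which is 3.84-fold, and without the block the difference was -1.87 (SE 0.24, adjusted p = 0.145). On leaving out each cultured array of experiment 2 in turn, the call held with the block (adjusted p = 0.0148 and 0.0287). The changes were -1.72 within experiment 1 and -2.19 and -2.02 within experiment 2.

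The brighter Prdx2 probe set, 1418506_a_at, did not follow. It read 10.11, 11.37 and 11.21 in cultured PCs against 10.62 and 11.41 in ex vivo PCs, where both arrays of experiment 1 were the lowest. Its difference with the block was -0.28 (SE 0.14, adjusted p = 0.353), with a 95% interval from -0.63 to 0.06. The change on 1430979_a_at lay below that on 1418506_a_at by 1.75 on the log2 scale, and in all 3 changes within an experiment (-1.21 in experiment 1, -2.15 and -1.82 in experiment 2). The two-sided exact permutation p over the 5 arrays, which ignores the pairing by experiment, was 0.1, the smallest possible. This test therefore cannot decide whether the 2 probe sets differ in their change. Both names end in _a_at, which Affymetrix gives to probe sets that match several transcripts of 1 gene. Which transcripts each one reads is not given in the sources used here.

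**Figure D2:**
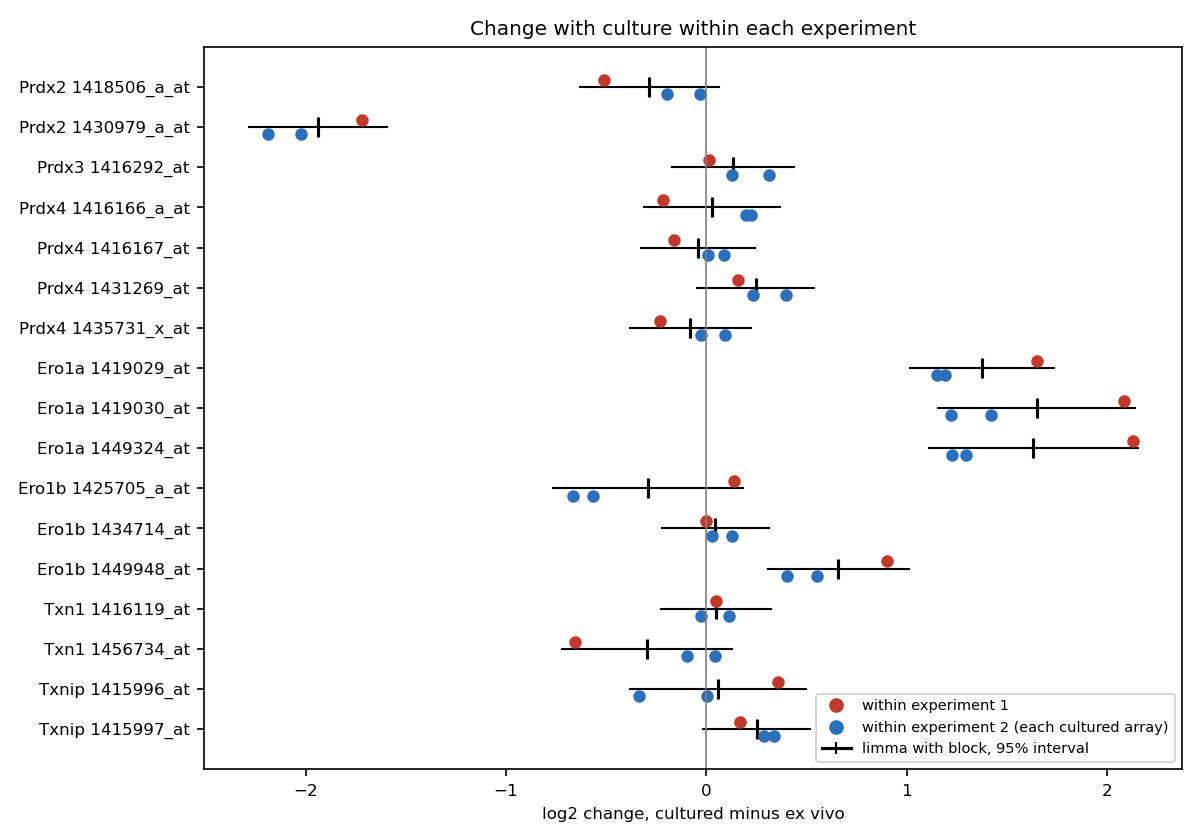
Difference of cultured minus ex vivo PCs on the log2 scale (x axis) for each probe set (y axis), with the change within experiment 1 in red (n = 1) and the change to each of the 2 cultured arrays of experiment 2 in blue. Black ticks are limma estimates with the experiment as a block and black lines their 95% intervals. The 3 Ero1a intervals lie above 0, that of Prdx2 1430979_a_at lies below 0, and that of Ero1b 1449948_at lies above 0 although it was not called after adjustment.

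Prdx4, the peroxiredoxin of the ER, which takes up peroxide released by ERO1, did not pass on any of 4 probe sets. On the brightest, 1416167_at, the log2 level was 12.34, 12.70 and 12.62 in cultured PCs against 12.50 and 12.61 in ex vivo PCs, and the groups overlapped. The difference without the block was -0.004 on the log2 scale, with a 95% interval from -0.42 to 0.41. Over the 4 probe sets the differences without the block ran from -0.10 to 0.21. Their 95% intervals together reached from -0.48 to 0.62. Probe set 1416166_a_at read 12.04, 12.07 and 12.09 in cultured PCs against 12.25 and 11.87 in ex vivo PCs. The dimmest, 1431269_at, read 7.80, 7.58 and 7.74 in cultured PCs against 7.65 and 7.35 in ex vivo PCs, so that the groups overlapped on both. The probe set 1435731_x_at, whose suffix marks probes that can bind other sequences, read between 10.88 and 11.19 in all arrays.

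Prdx3, the mitochondrial peroxiredoxin, was read by 1 probe set. Its log2 level was 10.67, 10.93 and 10.75 in cultured PCs against 10.65 and 10.62 in ex vivo PCs. The cultured arrays lay above the ex vivo arrays by a narrow margin, and the difference of 0.15 did not pass with or without the block (adjusted p = 0.618 and 0.909, 95% interval without it from -0.21 to 0.51).

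Thioredoxin itself was nearly level. Txn1 on 1416119_at read 12.58, 12.44 and 12.58 in cultured PCs against 12.53 and 12.47 in ex vivo PCs. Without the block this was a difference of 0.04 on the log2 scale, with a 95% interval from -0.29 to 0.36. Its other probe set, 1456734_at, read 5.83, 5.59 and 5.45 in cultured PCs against 6.49 and 5.55 in ex vivo PCs. It was under the floor in 3 of 5 arrays and carried no called difference.

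Txnip, the thioredoxin inhibitor, whose transcript is known to rise with glucose, was read by 2 probe sets. On the brighter, 1415997_at, its log2 level was 12.67, 12.92 and 12.97 in cultured PCs against 12.50 and 12.63 in ex vivo PCs. The groups did not overlap, but the difference of 0.29 did not pass without the block (95% interval from -0.11 to 0.68) or with it (0.25, SE 0.11, adjusted p = 0.299). On 1415996_at the groups overlapped, at 11.79, 11.57 and 11.91 in cultured PCs and 11.44 and 11.90 in ex vivo PCs.

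Between the experiments, with culture as a covariate, 3 of the 17 stood higher and 1 lower in experiment 2 than in experiment 1, against 13.0% higher and 13.8% lower among all tested. The share of the 17 is close to that of all probe sets. Prdx2 on 1418506_a_at was higher by 1.01 (SE 0.14, adjusted p = 0.00761, limma) and Ero1b on 1449948_at by 1.48 (SE 0.14, adjusted p = 0.00385). The probe sets of Ero1a disagreed here. Probe set 1419030_at was higher by 0.73 (adjusted p = 0.045), 1419029_at was lower by 0.59 (difference -0.59, adjusted p = 0.0339), and 1449324_at did not pass (0.07). No member was called between the experiments without either ex vivo array or without the cultured array of experiment 1. Without the second cultured array of experiment 2 only the probe sets of Prdx2 and Ero1b passed, and without the first 1419029_at was lost (adjusted p = 0.0659). The control differences given above for Actb separated the same experiments, and their part in these differences was not tested.

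Markers of other cells that the samples could hold are given beside these results. The summed intensity of 15 measured erythroid markers was 616 to 693 in cultured PCs, against 685 and 718 in ex vivo PCs. Of these markers 8 lay under the floor in every array, the haemoglobin gene Hba-a1 among them, and none of the 7 tested was called with the block. Summed T and NK cell markers ran from 1565 to 1801 in cultured PCs against 2125 and 2208 in ex vivo PCs, and 1 of 6 tested was lower with the block (0 on leaving out either cultured array of experiment 2). Summed neutrophil markers ran from 473 to 493 in cultured PCs against 591 and 917 in ex vivo PCs, and none of 5 tested was called with the block. Macrophage markers overlapped between the groups in their sum, at 1802 to 2217 in cultured PCs and 1902 and 2437 in ex vivo PCs. Single markers did not run alike. With the block 4 of 10 tested were lower and 1 higher (4 lower and 0 higher on leaving out either cultured array of experiment 2). Lower were C1qa (-2.16), C1qb (-2.28), Mrc1 (-1.68) and Fcna (-1.80). C1qa and C1qb lay under the floor in all cultured arrays and entered the test only through the ex vivo arrays. Higher was Cd68 (0.89), the brightest macrophage marker in every array. The part of these cells in the fall of Prdx2 on 1430979_a_at was not tested.

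Stromal markers were higher in the same arrays as Ero1a. Within experiment 2 their sum was higher in culture by 4.24 and 4.27 on the log2 scale, and within experiment 1 by 2.47. The Ero1a changes ran from 1.15 to 1.42 within experiment 2 and from 1.65 to 2.13 within experiment 1. That Ero1a difference between the experiments did not pass its test. The part of ST2 RNA in the level of Ero1a was not tested.

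**Figure D3:**
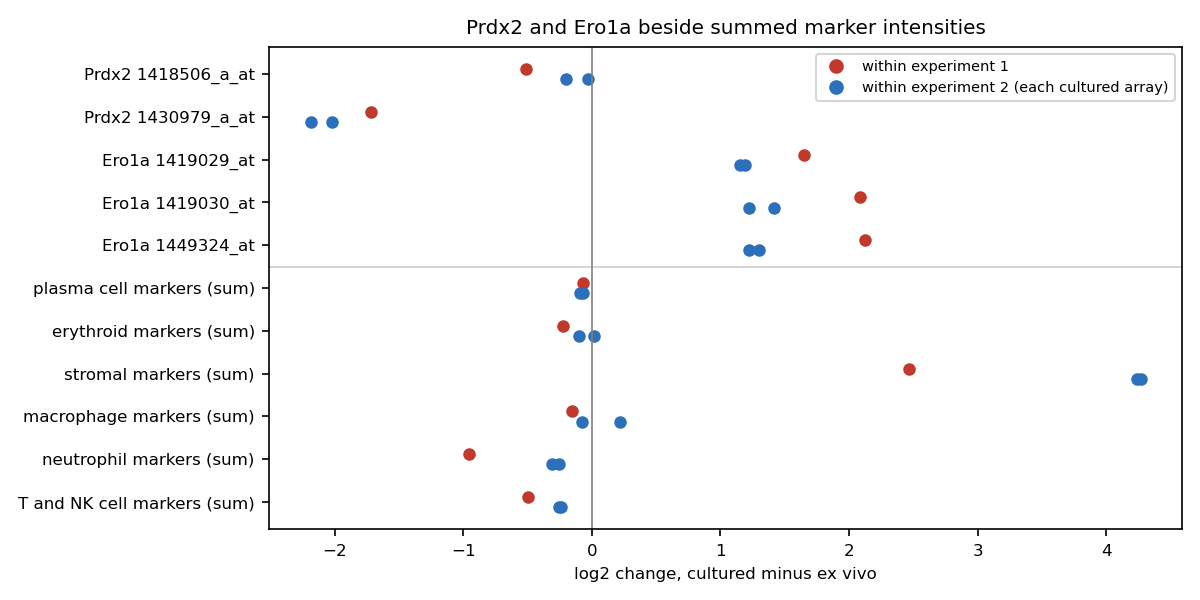
Difference of cultured minus ex vivo PCs on the log2 scale (x axis) of the Prdx2 and Ero1a probe sets (top) and of the summed intensity of 6 marker lists (bottom), within experiment 1 (red) and for each cultured array of experiment 2 (blue). The stromal sum is higher in culture by 2.47 in experiment 1 and by 4.24 and 4.27 in experiment 2, and the PC and erythroid sums differ by at most 0.22.

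Among partners of the thioredoxin and glutathione systems, 2 of 31 measured genes rose with the block, none fell and 29 did not pass, and none passed without the block. Over all tested genes 1.13% rose and 0.611% fell. The median log2 difference with the block was 0.11 in this list and -0.05 over all genes. Hmox1, the heme oxygenase gene that oxidative stress is known to induce, read 10.69, 9.49 and 9.21 in cultured PCs against 8.32 and 7.82 in ex vivo PCs, and rose by 1.89 (SE 0.22, adjusted p = 0.0234, limma). Gclc, which encodes the catalytic subunit of the enzyme that limits glutathione synthesis, read 9.37, 9.20 and 9.27 in cultured PCs against 8.55 and 8.12 in ex vivo PCs, and rose by 0.99 (SE 0.12, adjusted p = 0.0272). Both genes had every cultured array above every ex vivo array. The call of Gclc was lost without either cultured array of experiment 2, and that of Hmox1 was lost only without the first. With the block, the adjusted p of Hmox1 was 0.0517 without the first of them and 0.0389 without the second, and that of Gclc was 0.0613 and 0.11. With the 2 arrays averaged, the adjusted p with the block was 0.0487 for Hmox1 and 0.0787 for Gclc. Among the genes that act directly on the measured proteins, Srxn1, which repairs overoxidized peroxiredoxins, stood at 0.99 (adjusted p = 0.0805) and Txnrd1, the cytosolic thioredoxin reductase gene, at 0.60 (adjusted p = 0.188), and neither passed.

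Among genes of oxidative folding in the ER, 1 of 25 measured genes rose with the block, none fell and 24 did not pass, and none passed without the block. The median log2 difference with the block was -0.08, against -0.05 over all genes. The gene that rose was Gpx8, a membrane-bound peroxidase of the ER, at 6.66, 7.77 and 7.80 in cultured PCs against 5.37 and 5.40 in ex vivo PCs (1.92, SE 0.25, adjusted p = 0.0321). Its adjusted p was 0.063 and 0.0915 when each cultured array of experiment 2 was left out in turn. Both its ex vivo values lay under the floor, so it entered the test only through the cultured arrays, and its size depends on the background. The stromal markers also had their highest sums in the cultured arrays of experiment 2, and the part of ST2 RNA in the level of Gpx8 was not tested. The protein disulfide isomerase genes, whose products hand electrons to ERO1, did not pass. In limma with the block, P4hb stood at 0.33 (adjusted p = 0.21), Pdia3 at -0.19, Pdia4 at -0.17, Pdia5 at -0.07 and Pdia6 at -0.15. The largest falls in this list were those of Txndc5 and Erp29, both at -0.41 (adjusted p = 0.182 and 0.147), and neither passed.

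**Figure D4:**
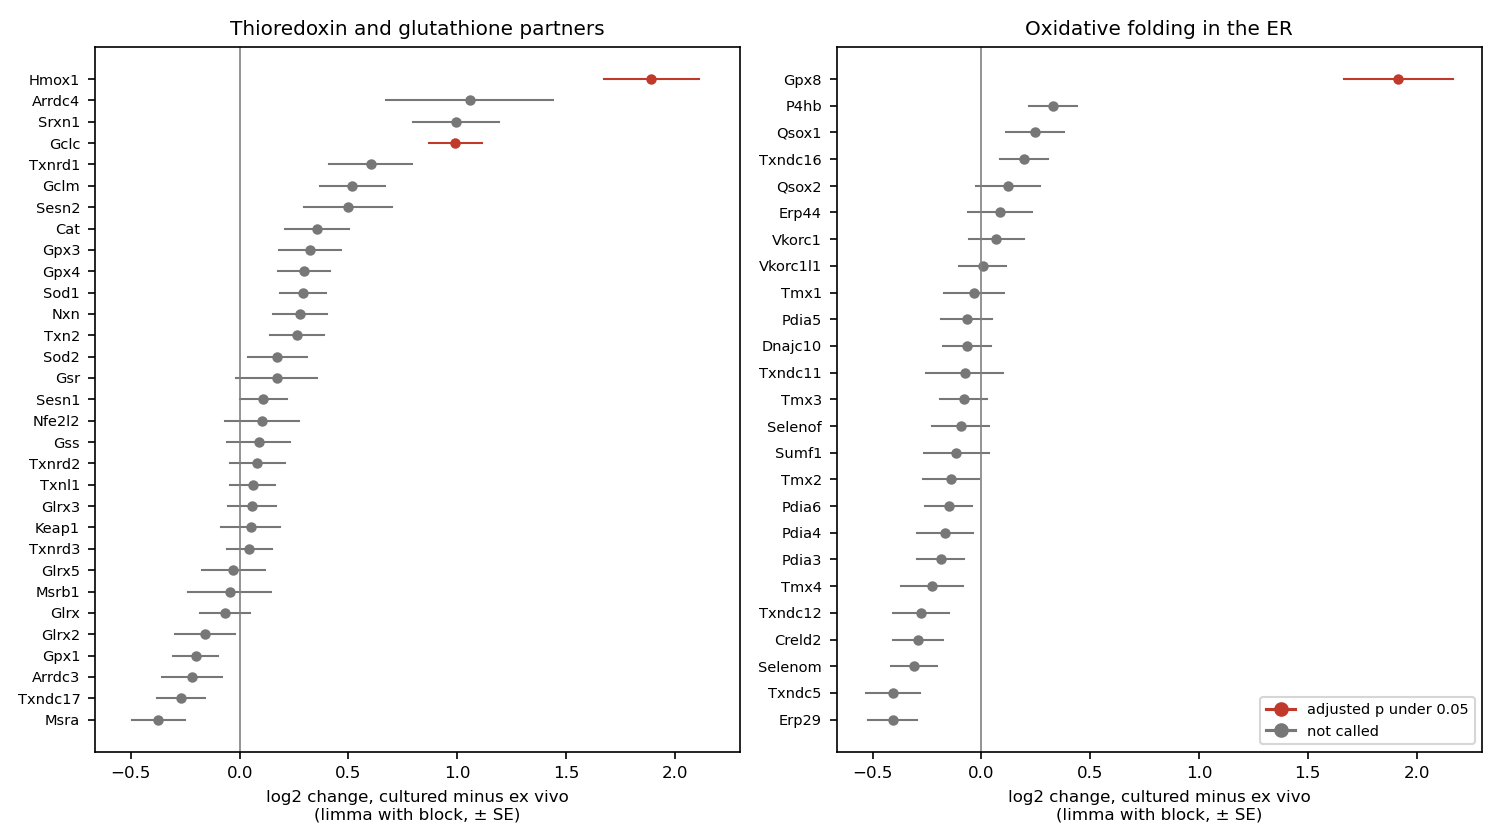
Log2 difference between cultured and ex vivo PCs (x axis, limma with the experiment as a block, lines are standard errors) for 31 genes of the thioredoxin and glutathione systems (left) and 25 genes of oxidative folding (right), each by its brightest probe set. Red points passed at an adjusted p under 0.05, and these are Hmox1, Gclc and Gpx8.

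For each called probe set, the 3 genes with the most similar profile over the 5 arrays were sought among 13577 genes, by the root mean square difference of log2 values after each was centred on its mean. For Ero1a on 1449324_at these were Pgam1 and Pgk1, which encode glycolytic enzymes, and Slc16a3, which encodes a lactate transporter, at 0.18, 0.19 and 0.19. For 1419030_at they were Hpse, Pfkl and Prelp (0.17, 0.26 and 0.26), and for 1419029_at they were Madcam1, Cdkn1a and Stc2 (0.10, 0.13 and 0.15). Only 3 of 13577 genes were kept for each, and the 3 Ero1a probe sets shared none of them. Their profiles also hold the differences between the experiments, on which these probe sets disagreed, although all 3 were higher in culture. For Prdx2 on 1430979_a_at the nearest genes were Il7r, Gm38529 and Gbp7 (0.21, 0.25 and 0.29). Il7r lay under the floor in all cultured arrays, and Prelp in the ex vivo array of experiment 1. The size of their changes thus depends on the background. Such distances over 5 arrays are a description, and each of these genes was read in the same arrays.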

How the data were processed

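Memory PCs were profiled on Affymetrix mouse arrays. The authors made the deposited intensities by RMA in the affy R package, and the submitters' notes also name GCOS, both without a version in the sources used here. These intensities are linear (array medians 87.05 to 94.14) and were turned into log2 values here, with no detection call. After 64 controls were left out of 45101 probe sets, 34945 had a single gene symbol, 932 had several and 9160 had none listed here. Symbols were checked by gene identifier against RefSeq (GRCm38.p6), and only single-symbol probe sets were named.

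A probe set was tested if at least 2 of the 5 arrays reached an intensity of 50. The tests used limma 3.58.1 in R 4.3.3 (lmFit, eBayes, Benjamini-Hochberg). The methods name limma and no covariate. The models here were culture alone, culture plus an experiment block, the experiment adjusted for culture, and the interaction, with 1 residual degree of freedom. The titles give the experiment, and the legends speak of individual analyses. Correlations of deviations from the group mean were 0.75 in experiment 1 and 0.56 and 0.72 in experiment 2. They are not independent, since the ex vivo deviations mirror each other. The block was read as pairing. The limma script was first tested on simulated data.

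Members and lists were chosen with earlier results of these data known. All member probe sets are named, with up to 4 called genes of each pathway list. Srxn1, Txnrd1, Txndc5, Erp29, the protein disulfide isomerase genes and the macrophage markers named were added after their values were seen. Of the listed genes, Slc7a11, Nqo1 and Gpx7 had no tested single-gene probe set, and 5 erythroid markers, 1 neutrophil marker and 1 T and NK cell marker were not measured. Alternatives were the block, averaging, filter, normalization, moderation and leaving out each array.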

Additional observations from a re-analysis of the deposited data

Results flagged for a closer look

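Of 17 probe sets, 3 had a change within experiment 1 opposite to the changes to both cultured arrays of experiment 2. These were Prdx4 1416166_a_at (0.20 and 0.22 in experiment 2, -0.22 in experiment 1), Prdx4 1416167_at (0.09 and 0.01 in experiment 2, -0.16 in experiment 1) and Ero1b 1425705_a_at (-0.66 and -0.57 in experiment 2, 0.14 in experiment 1), all on the log2 scale. With 1 cultured array in experiment 1, the limma interaction was the only test of these differences, and none passed (adjusted p = 0.654, 0.699 and 0.654). None of all 30477 probe sets passed it, and 2008 had an unadjusted p under 0.05.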

How the results depend on the processing

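The number of called probe sets was 14 for culture, against 550 with the experiment as a replicate block, 0 with the 2 cultured arrays of experiment 2 averaged, 187 averaged with the block, 5 with no filter and 31 with a floor of 100. Leaving out 1 array gave 0 to 257, with 257 without the cultured array of experiment 1, and with the replicate block it was 271 without cultured replicate 1 and 153 without cultured replicate 2, both of experiment 2. Of the 17 member probe sets, 0 were called, 4 with the replicate block, 1 (Prdx2 1430979_a_at) when also averaged, 4 with the block without cultured replicate 1 and 1 without cultured replicate 2. Of the pathway genes, 0 were called, 3 with the block, 1 when also averaged, 0 to 2 without 1 array, and 1 with the block without cultured replicate 2. Between the experiments, 4 member probe sets were called, 2 with no filter, and 0 to 3 without 1 array (0 without either ex vivo array or without the cultured array of experiment 1).

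Ero1a and Prdx2 1430979_a_at kept their direction in all 15 alternatives. Signs turned only where the difference was at most 0.39 on the log2 scale, and none of these was called: to -0.0036 for Prdx4 1416166_a_at when averaged (with or without the block), -0.048 with median centring and -0.0091 with the block without cultured replicate 2, to 0.0135 for Prdx4 1416167_at with quantile normalization, and to -0.0151 for Txn1 1416119_at and -0.0006 for Ero1b 1434714_at with median centring. Leaving out 1 array gave ranges from -0.15 to 0.32 for Txnip 1415996_at, -0.19 to 0.20 for Prdx4 1416166_a_at, -0.077 to 0.10 for 1416167_at, -0.24 to 0.039 for 1435731_x_at, -0.51 to 0.28 for Prdx2 1418506_a_at, -0.58 to 0.063 for Ero1b 1425705_a_at and -0.86 to 0.077 for Txn1 1456734_at. The cause was not tested. Values near the floor carry least signal over background.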
